A study of Mus musculus with 12 samples.

Results

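Respiratory complex I (NADH:ubiquinone oxidoreductase) takes electrons from NADH, passes them along a chain of iron-sulfur clusters to ubiquinone, and pumps protons across the inner mitochondrial membrane. Its hydrophilic arm holds the NADH-oxidising module and the quinone module, and its membrane arm holds the proton pumps. Core subunits carry the flavin and the iron-sulfur clusters, accessory subunits surround and stabilise them, and the remaining core subunits, encoded by mitochondrial DNA, are not analysed here. In the fasted liver, complex I reoxidises the NADH that fatty acid oxidation makes.

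The nuclear complex I genes were taken from the gene count table by symbol, as protein-coding genes whose name starts with Ndufa, Ndufb, Ndufc, Ndufs or Ndufv followed by a digit, together with Ndufab1. This gave 38 genes of 41708, of which 36 encode subunits of the complex (7 core and 29 accessory). The other 2 carry the name only: Ndufa4 is now assigned to complex IV, and Ndufa4l2 is its paralog. The 38 genes lie on 15 chromosomes, 2 of them on X. All 38 were among the 12615 genes with enough counts to be tested.

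Liver RNA came from 7 mice with a hepatocyte knockout of Ube4a (LKO; Ube4a flox/flox with Albumin-Cre) and 5 Ube4a flox/flox mice without Cre (flox; called WT in their titles), all on a C57BL6/J background. Both groups had fasted overnight for 16 h, so the comparison asks what loss of Ube4a, a ubiquitin chain elongation factor, does to expression in fasted liver. The Albumin promoter drives Cre in hepatocytes, while the RNA is from whole liver, and a group with Cre alone was not analysed here. The sources used here give neither age nor sex. Each library is 1 mouse, so p-values measure the spread between these mice.

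Ube4a was 26.6 ± 3.45 CPM in LKO livers (SD, n = 7) and 134 ± 11.6 CPM in flox livers (SD, n = 5), and the 2 groups did not overlap. CPM are counts scaled to a common library size (TMM), and libraries held 13399874 to 16525053 counts. On a first principal component (37.3% of the variance), flox replicates 4 and 5 lay at 45.8 and 64.8 and all other livers between -32.1 and 15.3. The summed level of 7 neutrophil markers was 264 and 421 CPM in these 2 livers and at most 1.496 CPM elsewhere, and that of 8 Kupffer cell markers was 436 and 631 CPM against at most 219 CPM elsewhere. The 7 hepatocyte markers in the table summed to 84365 to 115937 CPM in LKO livers and 87813 to 108453 CPM in flox livers. Alb alone held 57490 to 85199 CPM in LKO livers and 58263 to 80645 CPM in flox livers. The median log2 fold change of LKO over flox of the 7 hepatocyte markers was -0.14, with 5 negative. Without flox replicates 4 and 5 it was -0.05, with 1 of 7 positive. The 4 muscle markers summed to at most 0.300 CPM and the 3 fat markers to at most 0.338 CPM in any liver. Of these, Myh6, Ckm and Ucp1 were at 0 in all 12 livers. Of 3 pancreas markers, Prss2 and Cpa1 were at 0 in all 12 livers, while Cela1 held 3.14 to 8.07 CPM. In bulk tissue, fewer cells of a type and less RNA per cell cannot be told apart. Flox replicates 4 and 5 also had the highest sums of 5 endothelial markers (189 and 251 CPM) and 5 stellate cell markers (227 and 333 CPM). Values without flox replicates 4 and 5 therefore stand beside the medians of gene groups and many single genes. Leaving these 2 livers out does not balance the Kupffer cell, endothelial and stellate cell markers but turns their difference round. The median log2 fold change went from -1.05 to 0.91 for Kupffer cell markers. It went from -0.41 to 0.64 for endothelial and from -0.24 to 0.31 for stellate cell markers. The part of these cells in the results was not tested.

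Differences in complex I mRNA between LKO and flox livers were small, and no complex I gene passed the test. Of the 38 genes, 0 were higher and 0 lower in LKO livers at an adjusted p under 0.05 (quasi-likelihood test of edgeR, adjusted after Benjamini and Hochberg over all genes tested), where 0.00793% of all genes were called, namely Ube4a alone. The adjusted p of the 38 genes ran from 0.505 to 0.990 with edgeR and from 0.119 to 0.9996 with DESeq2, which called 0 of them and 0.143% of the genes it tested. At an unadjusted p under 0.05, 7 of the 38 genes were higher and 0 lower in LKO livers, against 3.49% of all genes higher and 4.15% lower. Of the 36 subunit genes, which leave out Ndufa4 and Ndufa4l2, 6 were higher and 0 lower. Without flox replicates 4 and 5, 4 of the 38 genes were higher (Ndufb3, Ndufa4, Ndufa1 and Ndufa3) and 0 lower, against 3.46% of all genes higher.

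The estimates leaned towards higher levels in LKO livers by a small amount. The log2 fold change of LKO over flox was positive for 30 of 38 genes (78.9%), with a median of 0.08, while 48.3% of all genes tested were positive with a median of -0.01. Of the 36 subunit genes, 29 were positive (80.6%), with a median of 0.08. Without flox replicates 4 and 5, 27 of 38 were positive with a median of 0.06, beside 51.0% and a median of 0.00 for all genes. The intervals bound how large a difference could be. For 35 of the 38 genes the 95% confidence interval lay within 0.58 of 0 on the log2 scale, a 1.5-fold difference in either direction. The exceptions were Ndufa1 (0.13 to 0.67), Ndufa3 (0.07 to 0.61) and Ndufa4l2 (-1.44 to 0.34).

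**Figure D1:**
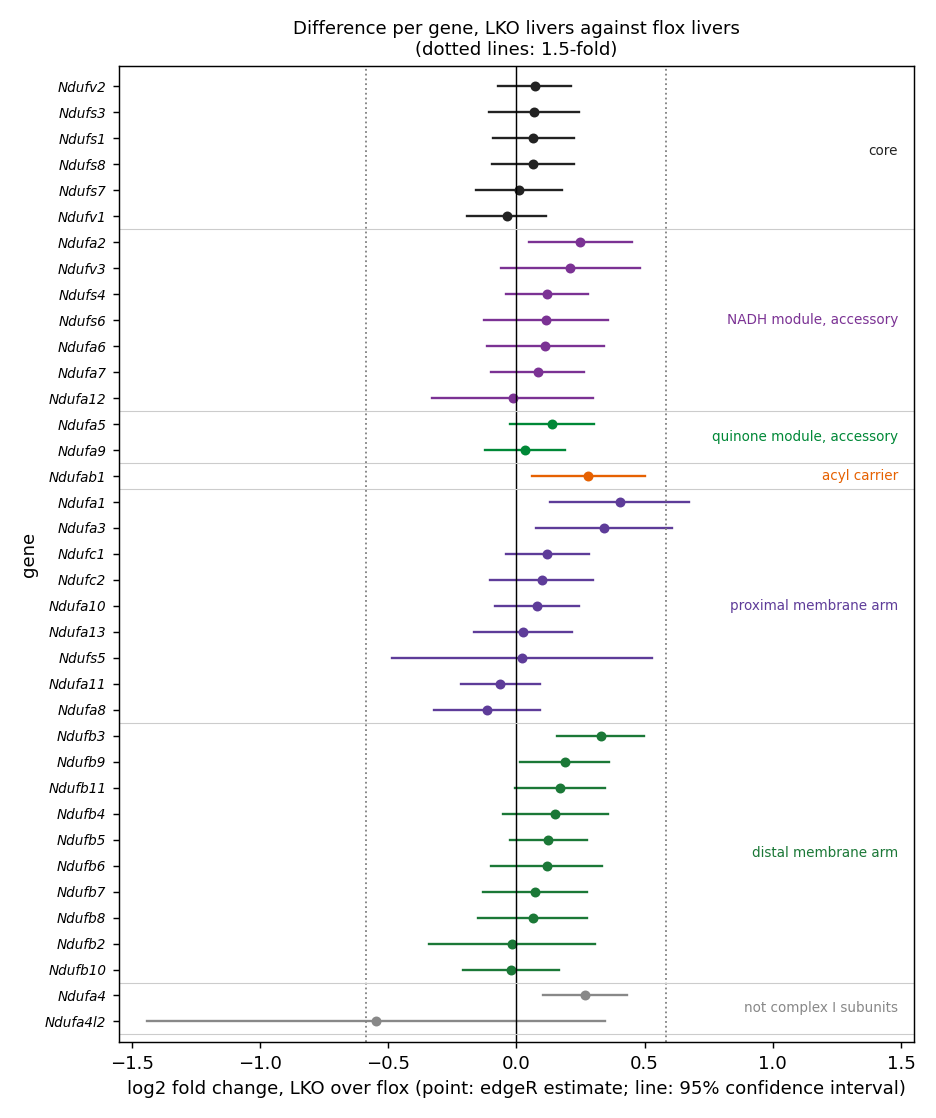
Log2 fold change of 37 of the genes, LKO over flox (points, edgeR estimates; lines, 95% confidence intervals), grouped by place in the complex. Most points lie just right of 0, and 34 intervals lie within the dotted 1.5-fold lines.

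Promoter sequence was read for these genes because nuclear-encoded subunits of the respiratory chain are known for sites of the factors NRF1, YY1 and the ETS family. RefSeq promoter windows (GRCm38.p6, 250 bases before to 50 bases after the annotated start, which is base +1) were matched for 33 of the 38 genes, in 35 windows. The letters AAGATGGC (YY1) stood in 7 windows of 7 genes, 20% of the 35 windows, and in 2.75% of all 32851 promoters in the table, counting both strands. All 7 matches were on the strand of the gene and between +23 and +46. They are shown in capitals in windows of 30 bases, 5′ to 3′ on the strand of the gene, because the 7 share both the letters and the place just after the start.
Ndufs7 (chr10:80249462-80249491, plus strand): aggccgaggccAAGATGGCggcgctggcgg
Ndufs4 (chr13:114388045-114388074, minus strand): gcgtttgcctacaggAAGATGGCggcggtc
Ndufs6 (chr13:73328433-73328462, minus strand): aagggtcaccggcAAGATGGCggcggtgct
Ndufa9 (chr6:126849097-126849126, minus strand): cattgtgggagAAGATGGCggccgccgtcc
Ndufa3 (chr7:3617384-3617413, plus strand): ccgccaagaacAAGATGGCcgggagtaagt
Ndufc1 (chr3:51408915-51408944, minus strand): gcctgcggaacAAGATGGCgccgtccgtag
Ndufb8 (chr19:44555393-44555422, minus strand): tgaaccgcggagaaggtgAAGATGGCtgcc

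For NRF1 the letters searched were GCGCA and GCGC with any 1 base between them. They stood in 8 windows of 7 genes, 22.9% of the 35 windows and 4.60% of all promoters, and a match can be read on both strands at 1 place, as it was in Ndufa11. The windows of Ndufa5 overlap and hold the same match, so that site was counted more than once. By gene, the letters stood in 7 of 33. The 250 bases before the start of Ndufb4 (chr16:37654369-37654618, minus strand) are shown because they held 3 such matches, in capitals, starting at -191, -79 and -22. A window of 30 bases of Ndufs5 (chr4:123718265-123718294, minus strand) is shown beside it because Ndufs5 was the most variable complex I gene above 10 CPM.
Ndufb4: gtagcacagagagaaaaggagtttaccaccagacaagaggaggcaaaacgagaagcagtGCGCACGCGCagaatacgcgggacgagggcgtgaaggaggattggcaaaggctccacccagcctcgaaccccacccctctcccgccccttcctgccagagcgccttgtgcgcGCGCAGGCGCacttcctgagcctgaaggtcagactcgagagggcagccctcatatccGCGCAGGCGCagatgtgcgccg
Ndufs5: gctgcttgctGCGCAGGCGCagacccgctg

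The letters CCGGAAG (ETS) stood in 4 windows of 4 genes, 11.4% of the 35 windows and 8.86% of all promoters. The median log2 fold change was 0.12 for the 7 genes with the YY1 letters and 0.08 for the 26 without, 0.11 with and 0.08 without the NRF1 letters, and 0.07 with and 0.10 without the ETS letters. The windows of Ndufb3 and Ndufa4, the 2 genes whose LKO livers all lay above all flox livers, held none of the 3 motifs. A match describes the letters only, and no test was made between genes with and without them.

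The 6 core subunits described here had log2 fold changes near 0. Of these, 5 of 6 were positive, with a median of 0.07 (0.05 without flox replicates 4 and 5). Ndufv1, which binds NADH and the flavin, had 145, 176 and 183 CPM (lowest, median and highest) in LKO livers and 167, 199, 174, 169 and 172 CPM in flox livers. Its highest liver was flox replicate 2 and its lowest LKO replicate 5, and the fold change was -0.04 on the log2 scale (-0.07 without flox replicates 4 and 5).

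Ndufv2, an iron-sulfur subunit next to Ndufv1, had 98.9, 110.4 and 119 CPM (lowest, median and highest) in LKO livers and 100.2, 118, 100.4, 102 and 105 CPM in flox livers. Ndufs1, which carries several clusters of the chain, had 126, 135 and 158 CPM in LKO livers and 119.5, 147, 129.8, 128 and 132 CPM in flox livers. For both, the groups overlapped across most of their range, and the log2 fold change was 0.07. Ndufs3, a quinone module subunit, had 71.7, 87.7 and 90.01 CPM in LKO livers and 73.1, 93.3, 72.8, 81.5 and 76.1 CPM in flox livers. Ndufs8, an iron-sulfur subunit of the same module, had 54.0, 60.1 and 73.0 CPM in LKO livers and 57.7, 62.9, 59.2, 56.1 and 58.4 CPM in flox livers. For Ndufs3 the groups covered much the same levels, while for Ndufs8 LKO replicates 1, 3 and 4 lay above every flox liver and LKO replicate 2 was the lowest liver. Each had a log2 fold change of 0.07 (0.06 for Ndufs3 and 0.04 for Ndufs8 without flox replicates 4 and 5). Ndufs7, which carries the last cluster before ubiquinone, had 94.7, 108 and 117 CPM in LKO livers and 109, 125, 99.6, 102 and 95.3 CPM in flox livers, and its log2 fold change was 0.01 (-0.06 without flox replicates 4 and 5). The edgeR adjusted p of these 6 genes was 0.817 to 0.985, and each interval lay between -0.19 and 0.25 on the log2 scale.

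Accessory subunits of the NADH module had positive fold changes in 6 of 7, with a median of 0.12 on the log2 scale (0.11 without flox replicates 4 and 5). Ndufa2 had the smallest p of them. It had 67.5, 88.5 and 93.4 CPM (lowest, median and highest) in LKO livers and 69.2, 69.5, 65.9, 66.3 and 69.8 CPM in flox livers. LKO replicates 1 to 4 lay far above every flox liver, while LKO replicates 5 to 7 lay at the flox level. On the log2 scale its fold change was 0.25 (standard error 0.09, unadjusted p = 0.018, edgeR adjusted p = 0.625). The other 6 (Ndufa6, Ndufa7, Ndufa12, Ndufs4, Ndufs6 and Ndufv3) had log2 fold changes of -0.01 to 0.21 and adjusted p of 0.708 to 0.990. Ndufs4, whose loss in mice gives a Leigh-like encephalopathy, was 55.0 ± 4.62 CPM in LKO livers and 50.6 ± 3.88 CPM in flox livers.

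The quinone module's accessory subunits Ndufa5 and Ndufa9 had log2 fold changes of 0.14 and 0.03. Ndufa9 binds NADPH near the joint of the arms, and its sign turned to -0.02 without flox replicates 4 and 5. Ndufab1 is the mitochondrial acyl carrier protein, which serves fatty acid and lipoate synthesis as well as complex I. It had 26.0, 32.0 and 42.4 CPM (lowest, median and highest) in LKO livers and 27.5, 30.5, 27.0, 26.5 and 25.3 CPM in flox livers. All LKO livers but replicate 6 exceeded the highest flox liver, and replicate 4 was the highest. Its log2 fold change was 0.28 (standard error 0.10, unadjusted p = 0.016, edgeR adjusted p = 0.625), and 0.23 without flox replicates 4 and 5.

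In the proximal membrane arm, 7 of 9 fold changes were positive, with a median of 0.08 (0.05 without flox replicates 4 and 5). Ndufa1, a small X-linked subunit that anchors in the membrane, had the largest positive fold change of all 38 genes (MGP_C57BL6NJ_G0036140, X from 32774367 to 32777986, minus strand). Gene positions are those of the count table, which follow a C57BL/6NJ annotation. It had 29.0, 41.1 and 43.5 CPM (lowest, median and highest) in LKO livers and 32.4, 25.9, 31.6, 29.0 and 23.0 CPM in flox livers. LKO replicates 1 to 5 lay above every flox liver and LKO replicates 6 and 7 among the flox livers. This gave a log2 fold change of 0.40 (standard error 0.13, unadjusted p = 0.007, edgeR adjusted p = 0.619), and 0.32 without flox replicates 4 and 5.

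Ndufa3, a small membrane subunit of the same region, had 33.3, 43.1 and 55.8 CPM (lowest, median and highest) in LKO livers and 38.5, 32.7, 29.5, 36.8 and 33.8 CPM in flox livers. Here too LKO replicates 6 and 7 lay among the flox livers and the other LKO livers above them. Its log2 fold change was 0.34 (standard error 0.12, unadjusted p = 0.016, edgeR adjusted p = 0.625). Ndufa3 overlaps Tfpt on the other strand, and since the strand setting of the counting is not given in the sources used here, reads of the 2 genes cannot be told apart. The same holds for Ndufa2 with Tmco6, Ndufb11 with Rbm10, Ndufb5 with Mrpl47, Ndufs1 with Eef1b2, Ndufs3 with Kbtbd4 and Ndufb2 with Braf. It also holds for Ndufb6 with a gene without a symbol. Of the other proximal subunits apart from Ndufs5, the 6 genes Ndufa8, Ndufa10, Ndufa11, Ndufa13, Ndufc1 and Ndufc2 had log2 fold changes of -0.11 to 0.12 and adjusted p of 0.709 to 0.961. The lowest was Ndufa8, a subunit facing the intermembrane space.

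In the distal membrane arm, 8 of 10 fold changes were positive, with a median of 0.12 (0.07 without flox replicates 4 and 5). Ndufb3, a small subunit of the arm's far end, had the smallest p of the 38 genes (MGP_C57BL6NJ_G0016446, chromosome 1 from 60804087 to 60814615, plus strand). It had 26.0, 29.0 and 34.0 CPM (lowest, median and highest) in LKO livers and 23.8, 24.8, 21.3, 23.1 and 24.6 CPM in flox livers. Every LKO liver lay above every flox liver, which held for 2 of the 38 genes, Ndufb3 and Ndufa4, and for 0.293% of all genes tested, while the opposite order held for 0 of the 38 and 0.19% of all genes. The log2 fold change of Ndufb3 was 0.33 (standard error 0.08, 95% interval 0.16 to 0.50, unadjusted p = 0.00096), and its edgeR adjusted p was 0.505. It was 0.34 without flox replicates 4 and 5. The gap was narrow, since the lowest LKO liver (26.0 CPM) and the highest flox liver (24.8 CPM) lay closer together than the livers of either group spread.

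Ndufb9, an LYR-motif subunit that sits against the acyl carrier protein, had 164, 174 and 215 CPM (lowest, median and highest) in LKO livers and 175, 172, 157, 151 and 151 CPM in flox livers. All 7 LKO livers lay above the flox mean, but flox replicates 1 and 2 lay among them. The estimate was a log2 fold change of 0.19 (standard error 0.08, unadjusted p = 0.037, edgeR adjusted p = 0.645), and 0.13 without flox replicates 4 and 5. Ndufb11, the other X-linked subunit, had 125, 148 and 157 CPM in LKO livers and 133, 134, 138, 115 and 113 CPM in flox livers. Its lowest livers were flox replicates 4 and 5, and the log2 fold change was 0.17 with them (unadjusted p = 0.058, edgeR adjusted p = 0.661) and 0.08 without them. The other 7 distal subunits (Ndufb2, Ndufb4, Ndufb5, Ndufb6, Ndufb7, Ndufb8 and Ndufb10) had log2 fold changes of -0.02 to 0.15 and adjusted p of 0.701 to 0.989. Ndufb4, whose promoter held 3 NRF1 matches, was 75.1 ± 11.2 CPM in LKO livers and 67.5 ± 2.02 CPM in flox livers.

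The 2 genes that carry the name but encode no complex I subunit lay far apart in level per gene length, at 191 FPKM for Ndufa4 and 0.779 FPKM for Ndufa4l2 over all livers (fragments per length of gene and library size, as the authors deposited them). Ndufa4 (MGP_C57BL6NJ_G0030891) spans chromosome 6 from 9306422 to 9313478 on the minus strand. Ndufa4 had 225, 251 and 291 CPM (lowest, median and highest) in LKO livers and 217, 219.7, 222, 198 and 197 CPM in flox livers. Every LKO liver lay above every flox liver, by a margin of a few CPM between LKO replicate 7 and flox replicate 3. For Ndufa4 the log2 fold change was 0.27 (standard error 0.08, 95% interval 0.10 to 0.43, unadjusted p = 0.003, edgeR adjusted p = 0.510), and 0.21 without flox replicates 4 and 5, its 2 lowest livers. Ndufa4l2, which hypoxia induces and which lowers complex I activity in cultured cells, had 0.349, 0.661 and 0.885 CPM in LKO livers and 1.499, 0.495, 0.306, 1.48 and 0.792 CPM in flox livers. These are 4 to 25 counts a library, the gene overlaps the abundant Shmt2 on the other strand, and the log2 fold change of -0.55 (95% interval -1.44 to 0.34, edgeR adjusted p = 0.769) has no resolved direction at this depth.

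**Figure D2:**
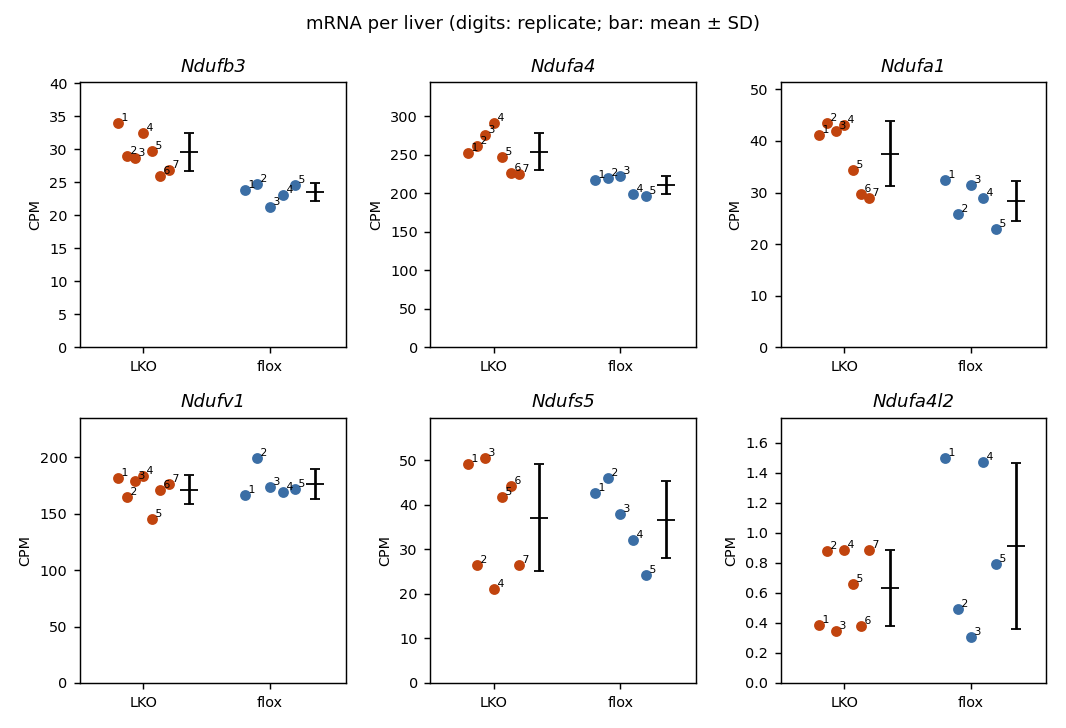
CPM per liver of 6 genes in LKO (n = 7) and flox livers (n = 5), with digits for the replicate and bars for the mean ± SD. Ndufb3 and Ndufa4 separate the groups, Ndufa1 and Ndufv1 overlap, and Ndufs5 and Ndufa4l2 vary within both groups.

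Levels per gene length spanned a wide range within the complex. On the FPKM scale the 36 subunit genes ran from Ndufb9 at 280 ± 29.9 FPKM in LKO livers and 247 ± 17.1 FPKM in flox livers to Ndufb2 at 2.01 ± 0.330 FPKM in LKO livers and 2.04 ± 0.452 FPKM in flox livers. Between these ends the mean over all 12 livers differed 132-fold. Of the 38 genes, 7 reached 100 FPKM and 9 lay under 20 FPKM, with a median of 47.9 FPKM. Among the core subunits described, Ndufv2 averaged 106 FPKM and Ndufs1 16.7 FPKM over all livers. FPKM uses the gene length of the table, which is 419 bases for Ndufa1, 5628 for Ndufb2 and 8067 for Ndufs1, so a length that includes exons not used in liver would lower the value. GENCODE vM21 also lists pseudogenes named after Ndufa11, Ndufab1, Ndufb4 and Ndufs6, and the handling of reads shared with them is not given in the sources used here.

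**Figure D3:**
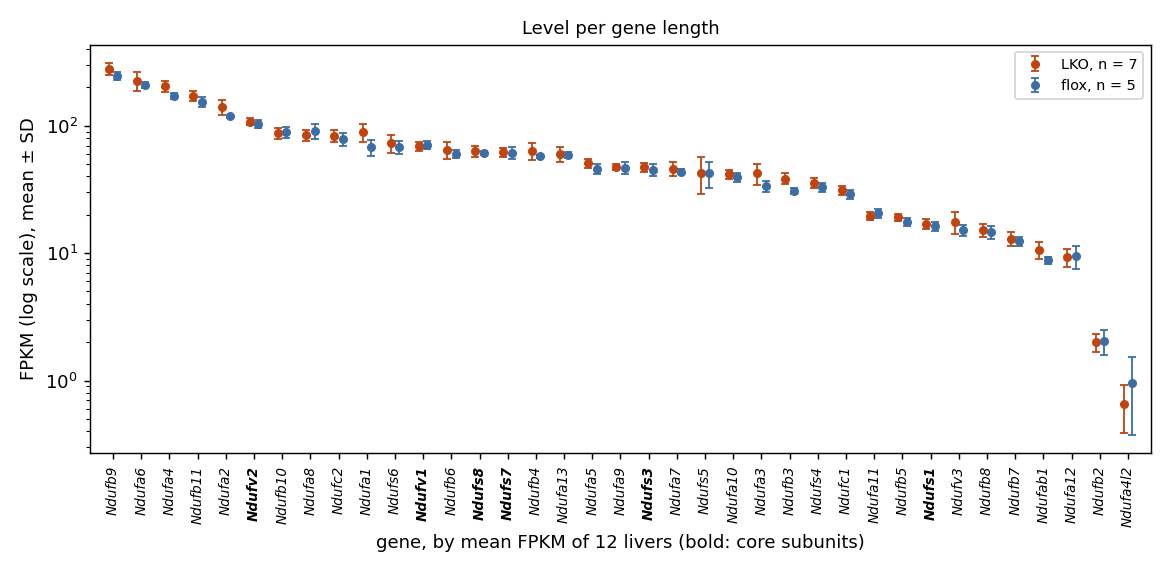
Mean FPKM ± SD of 37 of the genes on a log scale in LKO (n = 7) and flox livers (n = 5), ordered by the mean over all 12 livers, with core subunits in bold. The order runs from Ndufb9 to Ndufa4l2, and the 2 groups sit beside each other at each gene.

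Complex I mRNA varied between mice about as much as that of genes above 10 CPM, and livers of 1 genotype stood high or low across most of its genes at once. The coefficient of variation over all 12 livers had a median of 11.3% for the 38 genes (6.96% for Ndufv2 to 54.6% for Ndufa4l2), beside 12.1% for the 7527 genes tested above 10 CPM. The summed level of the 38 genes was 3177 ± 230 CPM in LKO livers (SD, n = 7) and 2991 ± 155 CPM in flox livers (SD, n = 5), and the ranges overlapped, at 2903 to 3490 CPM in LKO livers and 2887 to 3264 CPM in flox livers. LKO replicates 1, 3 and 4 lay above the mean of the 12 livers in 32, 32 and 36 of the 38 genes. LKO replicates 5 and 6 lay above it in only 11 and 8 genes. Among flox livers, replicate 2 lay above it in 26 genes and the other 4 in 5 to 11.

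**Figure D4:**
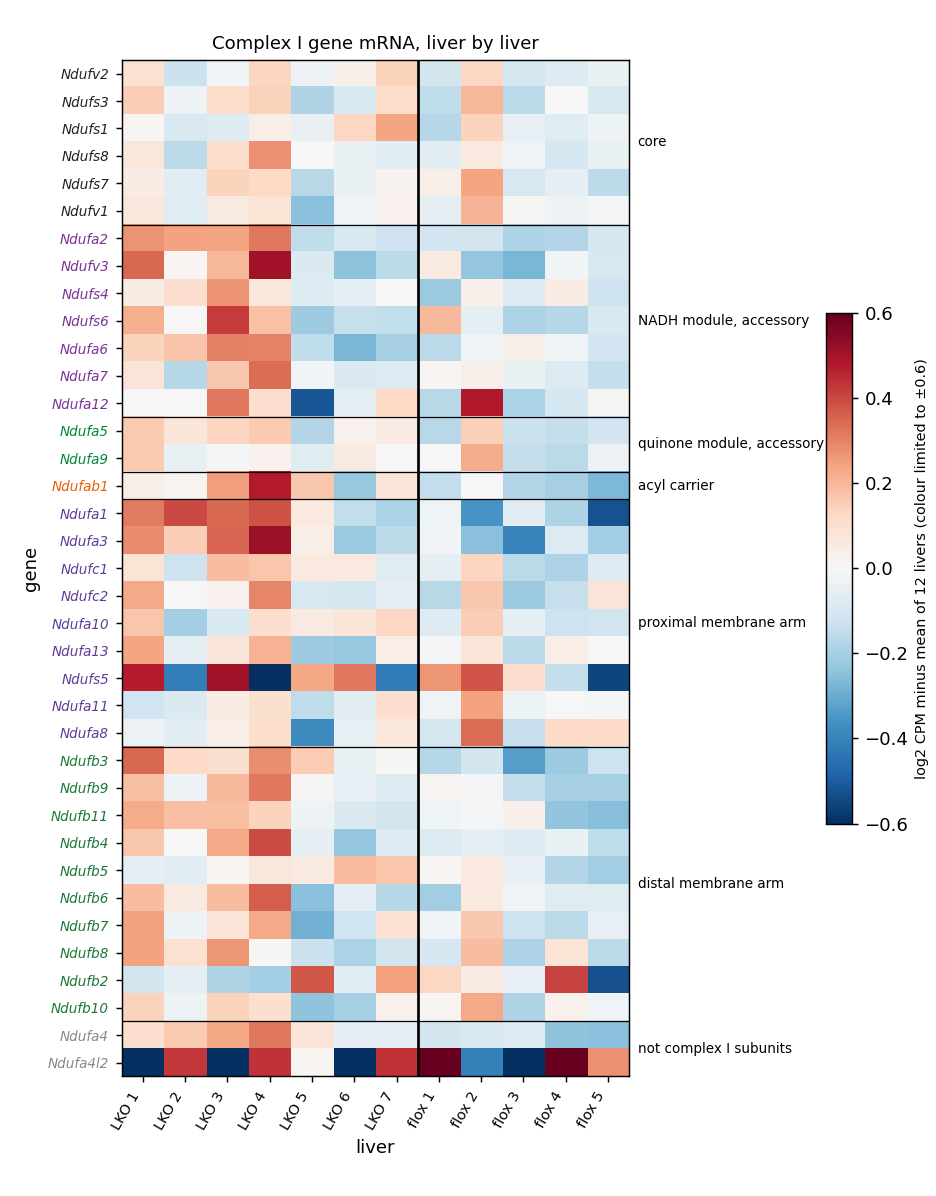
Log2 CPM of 37 of the genes in each liver minus the gene's mean over 12 livers (colour, limited to ±0.6), with LKO livers left of the line and flox livers right of it. Columns LKO 1, LKO 3, LKO 4 and flox 2 are mostly above their genes' means, and LKO 5, LKO 6, flox 1 and flox 3 to flox 5 mostly below.

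Other gene groups moved with the complex I genes across livers. The median deviation of the 38 genes from their own means, in log2 CPM, was 0.14, -0.03, 0.14, 0.16, -0.08, -0.07 and 0.00 in LKO replicates 1 to 7 and -0.06, 0.07, -0.12, -0.08 and -0.10 in flox replicates 1 to 5. For 38 nuclear genes of complexes II to V it was 0.09, -0.06, 0.11, 0.16, -0.05, -0.05 and 0.01 in LKO livers and -0.10, 0.08, -0.11, -0.08 and -0.04 in flox livers. The same livers thus stood high or low in both sets. For 180 other protein-coding genes shorter than 800 bases, 9 of which are in the list of complexes II to V, it was 0.10, 0.05, 0.15, 0.16, -0.08, -0.06 and -0.08 in LKO livers and -0.03, -0.06, -0.05, -0.03 and -0.04 in flox livers. LKO replicates 1, 3 and 4 were high in all 3 sets, while flox replicate 2 was high in the respiratory sets and not in the short genes.

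Short complex I genes had the higher median fold change. The 8 complex I genes under 800 bases were all positive, with a median log2 fold change of 0.15, and 4 of the 7 with an unadjusted p under 0.05 were among them (Ndufb3, Ndufa1, Ndufa2 and Ndufb9). Of the 30 longer ones, 22 were positive with a median of 0.07. The 180 other short genes had a median of 0.04 with 61.1% positive. Without flox replicates 4 and 5 the median was 0.12 for the 8 short and 0.04 for the 30 longer complex I genes (19 positive), and 0.07 for the other short genes (63.3% positive), so the order of the longer complex I genes and the other short genes turned round. The length limit was chosen after the values were seen, and the part of gene length in the results was not tested.

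**Figure D5:**
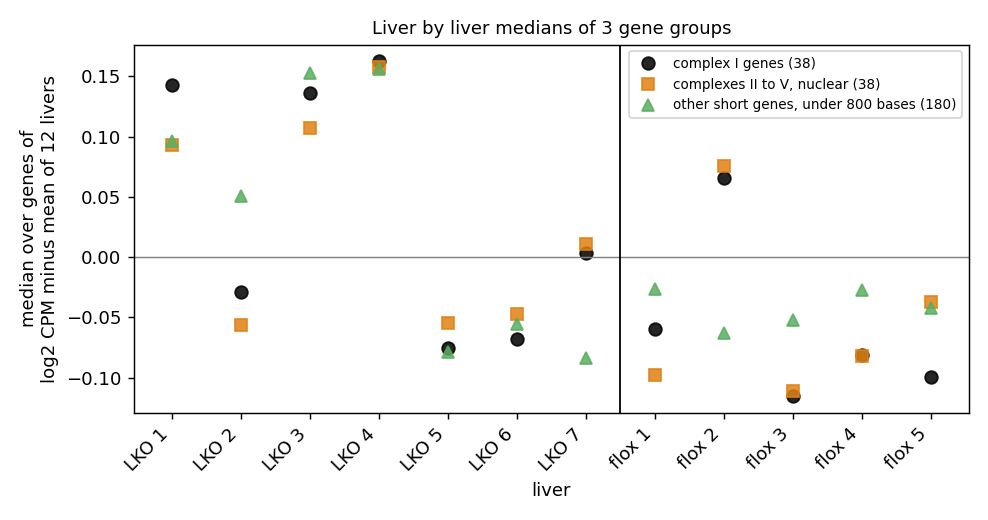
Median deviation from the mean of 12 livers (log2 CPM) in each liver, LKO left and flox right of the line, for the 38 complex I genes (circles), 38 nuclear genes of complexes II to V (squares) and 180 other short genes (triangles). All 3 symbols lie above 0 in LKO 1, LKO 3 and LKO 4 and below 0 in LKO 5 and LKO 6.

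Ndufs5, a subunit with paired cysteine motifs that faces the intermembrane space, did not follow the other subunits, and was picked out after its values were seen (MGP_C57BL6NJ_G0029165, chromosome 4 from 130005583 to 130012580, minus strand). It had 49.1, 26.5, 50.4, 21.1, 41.6, 44.2 and 26.5 CPM in LKO replicates 1 to 7 and 42.6, 46.0, 37.99, 32.1 and 24.2 CPM in flox replicates 1 to 5. The livers under 30 CPM were LKO replicates 2, 4 and 7 and flox replicate 5, at 21.1 to 26.5 CPM, and the other 8 held 32.1 to 50.4 CPM. LKO replicate 4 was thus the lowest liver for Ndufs5 although it was the highest for 12 other genes of the set. Its coefficient of variation was 28.0% on 286 to 761 counts a library, the widest of the complex I genes above 10 CPM. The log2 fold change of LKO over flox was 0.02 (95% interval -0.49 to 0.53), and -0.19 without flox replicates 4 and 5.

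Genes that assemble, feed or maintain complex I were read as lists beside the subunits, and 0 genes passed the edgeR or the DESeq2 test in any of them. At an unadjusted p under 0.05 in edgeR, 2 assembly factors (12.5% of their list) were higher in LKO livers. So were 6 genes of complexes II to V (15.8%) and 2 iron-sulfur assembly genes (13.3%), and 0 genes of these lists were lower. Among 8 other ubiquinone reducers and 7 protease genes, 0 were higher and 0 lower at this level. Of all genes, 3.49% were higher and 4.15% lower. Of 16 tested complex I assembly factors, 16 were positive with a median log2 fold change of 0.10, beside 48.3% and -0.01 for all genes. Without flox replicates 4 and 5, 13 of 16 were positive with a median of 0.05, beside 51.0% positive for all genes. The median was 0.06 without flox replicate 5 alone. Acad9, an acyl-CoA dehydrogenase relative that acts in assembly, was 33.7 ± 3.89 CPM in LKO livers and 28.6 ± 1.64 CPM in flox livers, a log2 fold change of 0.24 (edgeR adjusted p = 0.625). Ndufaf2, an assembly factor that leaves the complex late, was 8.65 ± 0.988 CPM in LKO livers and 7.21 ± 0.918 CPM in flox livers, a log2 fold change of 0.26 (edgeR adjusted p = 0.650). For both, the 2 groups overlapped.

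Among the 38 nuclear genes of complexes II to V, 32 were positive with a median of 0.10. Without flox replicates 4 and 5, 27 of 38 were positive with a median of 0.06. The median was 0.045 without LKO replicate 4. Cox7c, a complex IV subunit, was 16.9 ± 2.65 CPM in LKO livers and 12.2 ± 1.35 CPM in flox livers, a log2 fold change of 0.46 (edgeR adjusted p = 0.505). Uqcrb, a complex III subunit, was 32.0 ± 5.36 CPM in LKO livers and 25.7 ± 2.77 CPM in flox livers, a log2 fold change of 0.32 (edgeR adjusted p = 0.625). The fold changes of the complex I genes thus lay beside those of the rest of the chain, and no test of a difference between the sets was made.

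Of 15 iron-sulfur cluster assembly genes, 12 were positive with a median of 0.08. Without flox replicates 4 and 5, 10 of 15 were positive with a median of 0.08. The median was 0.043 without LKO replicate 3 and 0.053 without LKO replicate 4. Isca2, which acts late in the making of a cluster type that complex I carries, was 24.6 ± 1.02 CPM in LKO livers and 21.6 ± 1.51 CPM in flox livers. Every LKO liver lay above every flox liver for Isca2 (log2 fold change 0.19, edgeR adjusted p = 0.625). Fdx1, a ferredoxin, was 59.6 ± 6.44 CPM in LKO livers and 53.0 ± 2.06 CPM in flox livers, with overlap. Of 8 other enzymes that reduce ubiquinone or feed it, 6 were positive with a median of 0.12. Without flox replicates 4 and 5, 4 of 8 were positive with a median of 0.02. The median was 0.068, 0.063 and 0.075 without flox replicate 4, flox replicate 5 or LKO replicate 4 alone. The 2 subunits of electron transfer flavoprotein, which carries electrons from fatty acid oxidation, had fold changes of opposite sign, 0.14 for Etfa and -0.15 for Etfb (edgeR adjusted p = 0.651 and 0.708).

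Of 7 mitochondrial protease genes, 7 were positive with a median of 0.07. Without flox replicates 4 and 5, 5 of 7 were positive with a median of 0.03. The median was 0.044 without flox replicate 5 alone. Clpx, the unfoldase of the ClpXP protease, was 322 ± 121 CPM in LKO livers and 227 ± 66.4 CPM in flox livers, a log2 fold change of 0.50 (standard error 0.26, edgeR adjusted p = 0.678), and 0.29 without flox replicates 4 and 5. Spg7, a subunit of an inner membrane protease, had a log2 fold change of 0.12, and 0.05 without flox replicates 4 and 5. Of 10 regulators of mitochondrial biogenesis, 4 were positive with a median of -0.04, near the values of all genes (48.3% positive, median -0.01), and 0 had an unadjusted p under 0.05. This median was -0.10 without flox replicates 4 and 5, -0.0044 without LKO replicate 1 and 0.00094 without flox replicate 2, so its sign rests on single livers. Polrmt, the mitochondrial RNA polymerase, was 31.0 ± 2.64 CPM in LKO livers and 34.1 ± 2.46 CPM in flox livers, a log2 fold change of -0.14 (edgeR adjusted p = 0.694), and Tfb1m, which methylates mitochondrial ribosomal RNA, had 0.12.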

How the data were processed

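Per the labels' protocols, TRIzol was used to extract total liver RNA and the NEBNext Ultra kit to build the libraries. The authors deposited whole-number counts per gene for 12 livers, used as deposited, and a table of FPKM values. The submitters' processing notes name HISAT2 2.0.5 and featureCounts 1.5.0-p3, besides CASAVA 1.8 and fastp, as well as DESeq2 1.20.0 and GRCm39. Gene identifiers and coordinates of 41096 rows are those of a C57BL/6NJ annotation, so gene positions are given as in the table, and promoter coordinates are those of RefSeq on GRCm38.p6. The deposited FPKM were checked to be count over gene length and 1 effective size per library. The 612 rows without a symbol held 1.36% to 1.95% of the counts.

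Genes were filtered with filterByExpr, which kept 12615, and scaled by TMM. LKO and flox livers were compared with edgeR 4.0.16 (glmQLFit, robust, glmQLFTest, no covariate) in R 4.3.3, with Benjamini-Hochberg adjustment over all genes tested and a threshold of 0.05. Interval bounds are at 95%. Fold changes are LKO over flox. Alternatives were other scaling, no low-count filter, DESeq2 1.42.0, limma 3.58.1 on log2(FPKM + 0.1) and log2(FPKM + 1), a replicate block, and leaving out livers. No 2 libraries of a group were alike (chi-square of 9.07 to 94.0 for each degree of freedom). The code was tested on simulated data.

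The complex I genes and the other lists were chosen with earlier results of these data known. Values were given by rule for the core genes described, the 8 genes with the smallest p and the 2 genes outside the complex, and for the 2 genes of smallest p in each other list. Promoter motifs were searched as exact letters on both strands. Results of 1 gene of the set are not reported here, though it is included in the counts and medians over the set. Mitochondrially encoded subunits, Ndufb1 and protein sequences are not analysed here. The length limit of 800 bases and the choice of Ndufs5 came after the values were seen.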

Additional observations from a re-analysis of the deposited data

Results flagged for a closer look

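In each group the highest and lowest liver of each gene were checked against the other livers with Dixon's test. This made 74 groups, where chance gives about 1 in 20 for independent groups. The groups share the same livers, in which these genes moved together, so the number flagged cannot be set against that rate. In 7 groups 1 liver stood apart, and in 6 of the 7 it was flox replicate 2 as the highest of the 5 flox livers. Its levels were 199.3 CPM for Ndufv1 (other flox livers 167 to 174), 150.5 CPM for Ndufa10 (125 to 130.2), 118 CPM for Ndufv2 (100.2 to 105), 63.2 CPM for Ndufa11 (52.4 to 53.4), 55.5 CPM for Ndufa5 (44.8 to 46.4) and 16.3 CPM for Ndufa12 (10.2 to 11.8). LKO replicate 5 was low for Ndufa8, at 57.4 CPM (other LKO livers 71.3 to 80.3).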

How the results depend on the processing

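With 0 complex I genes called as reported, 0 were called under each of the 21 alternatives. All genes called were 26 with DESeq2 and 1 to 2 when each liver was left out in turn, the higher value coming without LKO replicate 7. The median log2 fold change of the complex I genes was 0.08 and ran from 0.06 to 0.11 when each liver was left out. Over the same fits the list medians ran from 0.059 to 0.11 for assembly factors, 0.045 to 0.12 for complexes II to V, 0.043 to 0.086 for iron-sulfur assembly, 0.063 to 0.12 for other ubiquinone reducers, 0.044 to 0.11 for proteases and -0.10 to 0.00094 for biogenesis regulators. Without flox replicates 4 and 5 the median of the other ubiquinone reducers was 0.021 and that of the proteases 0.027.

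Genes near 0 changed sign. Ndufs1 was -0.0051 with the replicate block and -0.0074 without LKO replicates 6 and 7. Ndufb10 was 0.000259 without LKO replicates 6 and 7. Ndufs7 was -0.017 with total counts and -0.056 without flox replicates 4 and 5. Ndufa9 was -0.017 without flox replicates 4 and 5, and Ndufa13 was -0.0043 with total counts. Ndufs5 was -0.024 on log2(FPKM + 0.1), -0.022 on log2(FPKM + 1), -0.00485 with the replicate block and -0.19 without flox replicates 4 and 5. When each liver was left out in turn, the ranges were -0.067 to 0.026 for Ndufb10, -0.033 to 0.066 for Ndufs7, -0.0043 to 0.090 for Ndufa9, -0.022 to 0.056 for Ndufa13, -0.10 to 0.11 for Ndufs5, -0.080 to 0.11 for Ndufa12 and -0.14 to 0.093 for Ndufb2. The cause was not tested.

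The main fit did not pair livers by their numbers. Deviations of same-numbered livers correlated at -0.29 to 0.10, and 1 of 5 LKO livers matched its own flox number best. With the replicate block, which drops LKO replicates 6 and 7, 0 complex I genes and 1 gene of all were called, and the complex I median was 0.10. The fit without LKO replicates 6 and 7 and without a block was added after the data were seen.

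With 7 and 5 livers, the median half-width of the 95% interval of a log2 fold change was 0.18 for complex I genes (0.29 over all genes), so smaller differences could not be resolved. Counts under 30 a library limit Ndufa4l2.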
